A study of Mus musculus with 3 samples.

Results

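The collagen genes of the mouse were described by the openness of the chromatin around them in 3 ATAC-seq libraries of skin squamous cell carcinoma cells. A region of the deposited count table was counted for a gene when its midpoint lay nearest to the body of that protein-coding gene, at most 50 kb away. The list holds 43 collagen genes, of which 42 had at least 1 region and Col10a1 had none. They held 403 of the 95840 nuclear regions, with a median of 9 regions per gene and at most 26, and 306 of the 403 lay inside a gene body.

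Collagens are secreted proteins built of 3 chains wound into a triple helix. The fibrillar collagens, types I, III and V among them, assemble into the cables of the dermis and of tumour stroma. Type IV forms the sheet of the basement membrane under epithelia and around vessels, type VII the fibrils that anchor that sheet to the dermis, and type VI beaded filaments near it. In skin most fibrillar and type VI collagen is made by fibroblasts, while keratinocytes make type VII and part of type IV. Carcinoma cells in epithelial-mesenchymal transition are known for switching on collagen genes. ATAC-seq counts the DNA pieces that the transposase Tn5 cuts out of open chromatin, so it reads accessibility and not the transcript.

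The tumours were induced with DMBA, a mutagen, and TPA, a tumour promoter, in mice of mixed background that carried K14Cre, a recombinase driven by the promoter of the basal keratin gene Krt14, and RYFP, a fluorescent reporter that the recombinase switches on. The control genotype was K14Cre;RYFP, and the other was K14Cre;Fat1fl/fl,RYFP, in which the protocadherin gene Fat1 is deleted where Cre acts. All 3 groups carry the Cre and the reporter, and the sort kept tumour cells with (Epcam+) or without (Epcam-) the epithelial surface protein Epcam. The groups are control Epcam+, Fat1 cKO Epcam+ (cKO, conditional knockout) and Fat1 cKO Epcam-, with 1 library each of 100000 sorted cells. The titles of both Fat1 cKO libraries share a code that no label explains. No source used here states the age of the mice.

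With 1 library per group, nothing can be tested between conditions and there are no p-values. Values are counts or CPM, counts per 1000000 of the scaled nuclear total (4335304, 3812880 and 5485317 nuclear counts in the libraries labelled control Epcam+, Fat1 cKO Epcam+ and Fat1 cKO Epcam-). Intervals are 95% intervals of counting error only, which leaves out any spread between tumours. Unless stated otherwise, 3 values in a row follow that order of labels. CPM of a gene is summed over its regions, so levels compare libraries for 1 gene, not 1 gene with another. In bulk libraries, fewer cells with an open region and less opening per cell cannot be told apart.

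The peak calls that the authors deposited ran against the counts of the same name at the collagen genes, as they did over all nuclear regions. Of the 403 regions, 72 carried a peak call for Fat1 cKO Epcam- alone. Their median was 1.55 CPM in the count column of that name, but 6.77 CPM under the name control Epcam+, which was the highest of the 3 in 67 of the 72. The 60 with a call for control Epcam+ alone had a median of 1.996 CPM there, but of 5.55 CPM under the name Fat1 cKO Epcam-, the highest in 55 of them. All 31 with a call for Fat1 cKO Epcam+ alone were highest in the column of that name, at a median of 6.29 CPM. The pattern is not particular to collagen genes. Of 18422 nuclear regions with a call for control Epcam+ alone, 91.7% were highest under the name Fat1 cKO Epcam-. Of 10758 with a call for Fat1 cKO Epcam- alone, 88.4% were highest under the name control Epcam+. The calls and the counts of 2 of the 3 libraries thus name opposite columns, and every direction below is between count columns as they are labelled.

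**Figure D1:**
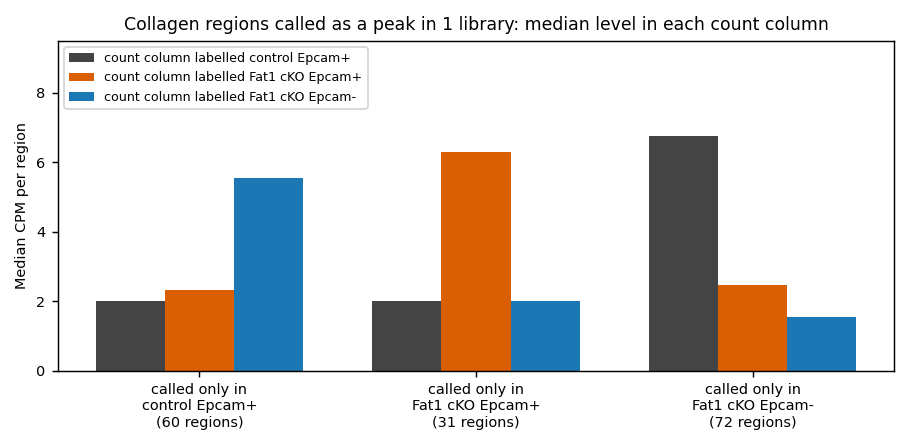
Median CPM per region (vertical axis) of the collagen regions called as a peak in exactly 1 library, with 1 bar for each count column and no error bar. Regions with a call for Fat1 cKO Epcam- alone are highest under the count name control Epcam+ (6.77 CPM), and those for control Epcam+ alone under Fat1 cKO Epcam- (5.55 CPM).

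The markers listed for the check of cell types, chosen with earlier results of these data known, stood as follows. The 7 keratinocyte and epithelial markers, Krt5, Krt14, Trp63, Epcam, Cdh1, Dsp and Perp, all had regions, and their summed level was 315, 982 and 848 CPM. The 10 fibroblast and pericyte markers, all with regions, summed to 489, 401 and 254 CPM, the 6 endothelial markers to 196, 210 and 199 CPM, and the 6 immune markers to 112, 95.2 and 85.1 CPM, with only Adgre1 at 0. Among the fibroblast markers Pdgfrb was at 65.2, 29.8 and 22.9 CPM, Dcn at 56.1, 35.3 and 21.1 CPM, and Pi16 at 8.21, 1.37 and 0.545 CPM, all highest by label in control Epcam+. The pericyte gene Rgs5 (19.1, 44.0 and 12.7 CPM) and Lum (7.32, 8.75 and 1.82 CPM) were highest in Fat1 cKO Epcam+, and Kcnj8 (11.5, 11.2 and 14.5 CPM) in Fat1 cKO Epcam-. All 7 epithelial markers were lowest in the library labelled control Epcam+. There 7 of the 10 fibroblast and pericyte markers, and their sum, were highest. So were 14 of 41 collagen genes (34.1%, against 26.8% of 15847 protein-coding genes). They were 6 of 11 fibrillar, 4 of 6 type VI, 2 of 9 basement membrane and 2 of 15 remaining genes. By contrast, Col1a1 and Col5a3 were highest in Fat1 cKO Epcam+, and Col6a5 and Col6a6 in Fat1 cKO Epcam- by label. Epcam itself, the sorting marker, stood at 67.7, 224 and 132 CPM, so the library labelled Epcam- was not the lowest. The part of these cell types in the collagen values was not tested.

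**Figure D2:**
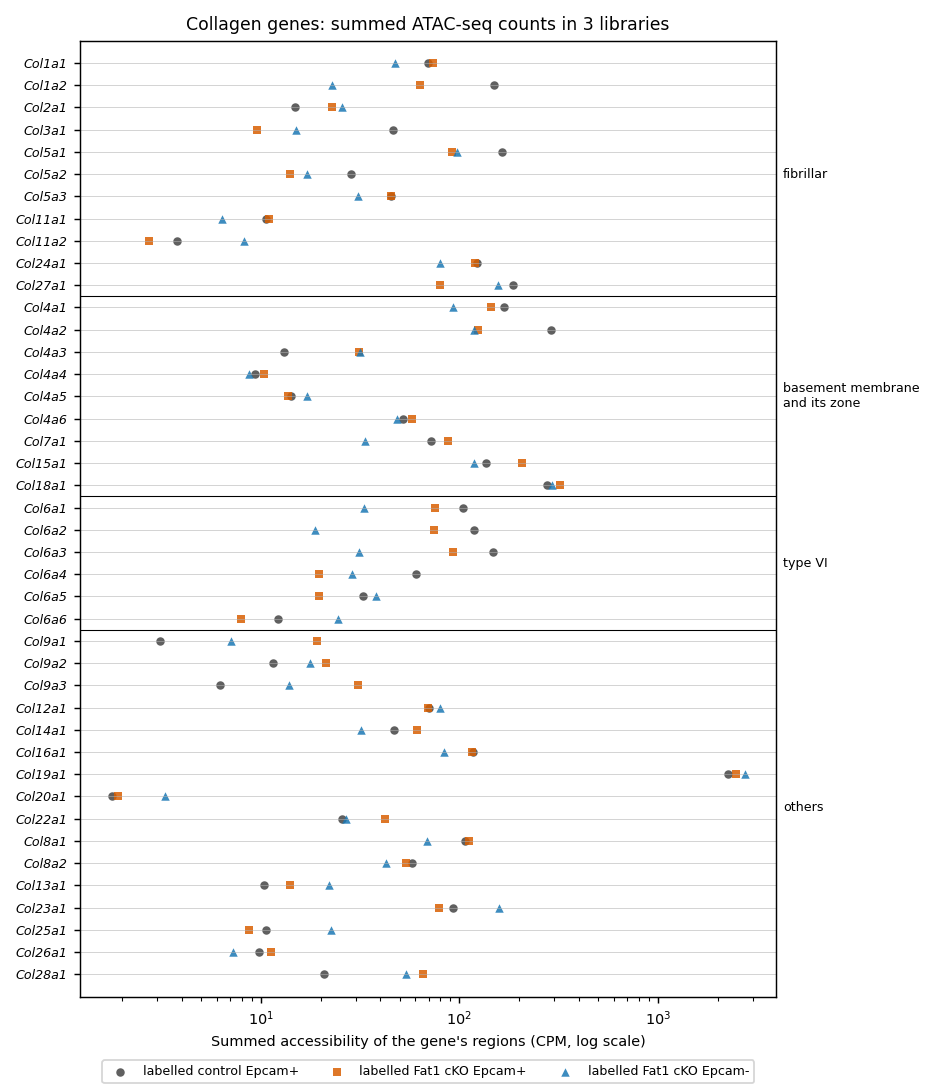
Summed accessibility of the 42 collagen genes with a region (CPM, log axis) in the 3 libraries, grouped by collagen class, with 1 point per library and no error bar. Col1a2, Col3a1, Col6a1, Col6a2 and Col6a3 are highest in the library labelled control Epcam+, while Col9a1 and Col9a3 are lowest there.

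Of the 11 fibrillar collagen genes, 6 were highest in the library labelled control Epcam+, 3 in Fat1 cKO Epcam+ and 2 in Fat1 cKO Epcam- by label (54.5%, 27.3% and 18.2%). Over the 15847 protein-coding genes with 20 counts in 1 library, these shares were 26.8%, 34.1% and 39.1%. The 112 fibrillar regions summed to 842, 533 and 507 CPM. Type I collagen is made of the chains of Col1a1 and Col1a2, and the pair did not run alike. Col1a2, on chromosome 6 from 4505618 to 4541543, held 676, 232 and 125 counts over 10 regions, or 150, 63.4 and 22.7 CPM. Each step down that series was larger than its counting error, with a log2 ratio of -1.24 (-1.46 to -1.02) for Fat1 cKO Epcam+ over control Epcam+ and of -1.46 (-1.81 to -1.16) for Fat1 cKO Epcam- over Fat1 cKO Epcam+. Over both steps Col1a2 was 6.49-fold lower under the label Fat1 cKO Epcam-, the lowest ratio of any collagen gene in the 3 comparisons. Col1a1, on chromosome 11 from 94936224 to 94953042, stood at 69.7, 73.6 and 47.3 CPM over 6 regions, with log2 ratios of 0.08 (-0.16 to 0.32), -0.63 (-0.89 to -0.39) and -0.55 (-0.80 to -0.32, Fat1 cKO Epcam- over control Epcam+). The authors called peaks in 1, 3 and 8 of the 10 Col1a2 regions, an order opposite to the counts.

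Col3a1, the chain of type III collagen, lies on chromosome 1 from 45311538 to 45349706 and held 208, 35 and 83 counts over 9 regions. It was lowest in the library labelled Fat1 cKO Epcam+, 4.65-fold below that labelled control Epcam+ (log2 ratio -2.22, -2.83 to -1.75), and 3.00-fold below it in that labelled Fat1 cKO Epcam- (-1.58, -1.997 to -1.24). Its own start region was sparse, at 14, 3 and 12 counts. The counts lay mostly elsewhere. Regions 41964 bp before the start, 4458 bp past it and 44755 bp past it held 38, 5 and 4, then 27, 1 and 9, then 56, 4 and 14 counts, singled out after the values were known. A further region, 23507 bp before the start, held 20, 0 and 0 counts. Reading each 0 as 3 counts per library makes it at least 5.41-fold lower under the label Fat1 cKO Epcam+, and under Fat1 cKO Epcam- at least 8.13-fold lower, both against control Epcam+.

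Type V collagen joins type I in fibrils and sets their width. Col5a1 held 741, 334 and 532 counts (164, 91.3 and 96.7 CPM), and Col5a2, the neighbour of Col3a1, 129, 51 and 94 counts (28.6, 13.9 and 17.1 CPM). Both were highest in the library labelled control Epcam+, whereas Col5a3 was level between the 2 Epcam+ libraries, at 45.0, 45.4 and 30.9 CPM. Of the minor fibrillar genes, Col27a1 had 835, 292 and 863 counts over 18 regions and was low under the label Fat1 cKO Epcam+ alone (185, 79.8 and 157 CPM). Its log2 ratio was -1.21 (-1.41 to -1.02) for Fat1 cKO Epcam+ over control Epcam+ and 0.97 (0.78 to 1.17) for Fat1 cKO Epcam- over Fat1 cKO Epcam+. Col24a1 stood at 123, 120 and 79.8 CPM. The cartilage collagen genes Col2a1 (67, 83 and 141 counts), Col11a1 (48, 40 and 35) and Col11a2 (17, 10 and 45) held few counts, and Col2a1 and Col11a2 were highest under the label Fat1 cKO Epcam-.

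Of the 6 type VI collagen genes, 4 (66.7%) were highest in the library labelled control Epcam+, against 26.8% of 15847 protein-coding genes. Col6a1 and Col6a2 lie near each other on chromosome 10 (76708792 to 76726044 and 76595756 to 76623630) and Col6a3 lies on chromosome 1 (90766860 to 90844001). Their products form the classical heterotrimer of connective tissue. Col6a1 held 471, 276 and 182 counts (104, 75.5 and 33.1 CPM), Col6a2 537, 271 and 103 (119, 74.1 and 18.7 CPM) and Col6a3 664, 341 and 171 (147, 93.2 and 31.1 CPM). All 3 had the same order, control Epcam+ highest and Fat1 cKO Epcam- lowest by label, and no counting interval of these 9 ratios reached 0. The fold between those extremes was 3.13 for Col6a1, 6.24 for Col6a2 and 4.68 for Col6a3.

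The other type VI genes, Col6a4, Col6a5 and Col6a6, form a cluster on chromosome 9 and encode chains that can stand in for that of Col6a3. Col6a4 had 274, 72 and 158 counts (60.8, 19.7 and 28.7 CPM), Col6a5 147, 72 and 208 (32.6, 19.7 and 37.8 CPM) and Col6a6 55, 29 and 134 (12.2, 7.93 and 24.4 CPM). These were lowest under the label Fat1 cKO Epcam+, and Col6a5 and Col6a6 were highest in that labelled Fat1 cKO Epcam-. For Fat1 cKO Epcam- over Fat1 cKO Epcam+ the ratios of the cluster were above 0 (0.54, 0.93 and 1.57), and those of Col6a1, Col6a2 and Col6a3 below it (-1.18, -1.96 and -1.57). The peak calls again went the other way for Col6a2, with 0, 4 and 8 of its 10 regions called.

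**Figure D3:**
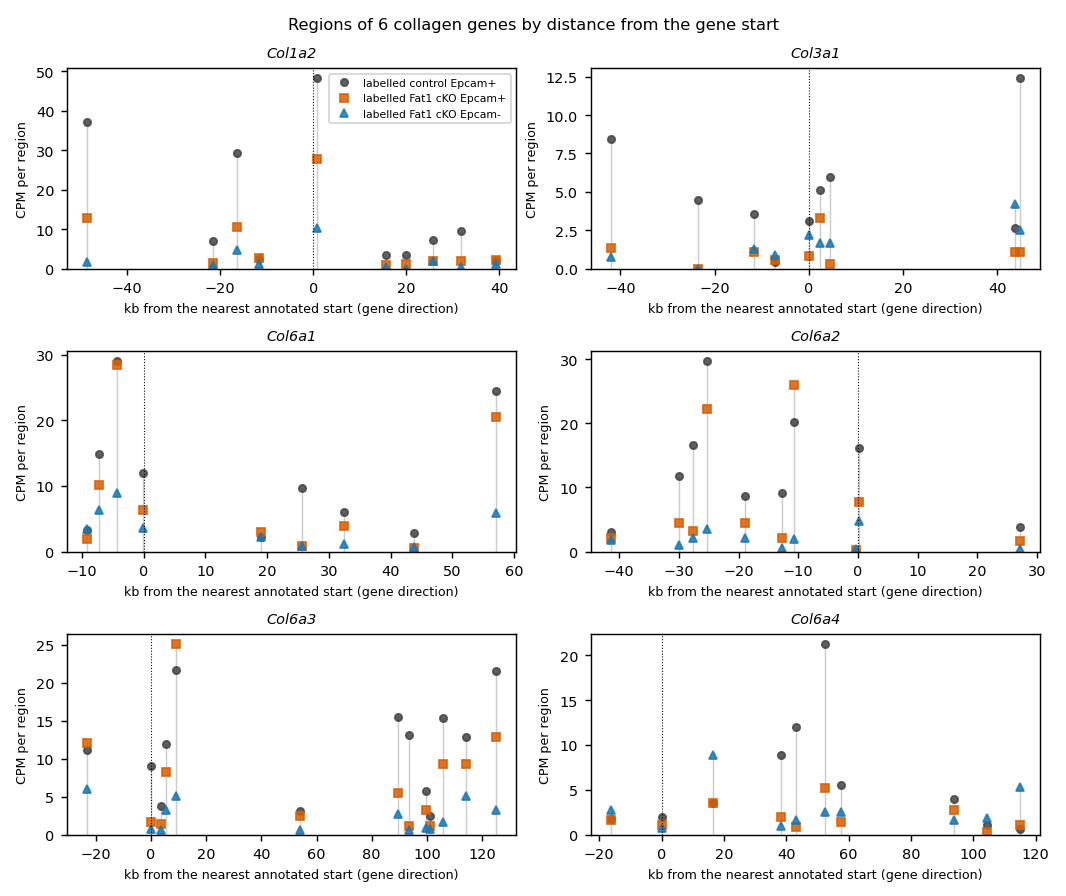
CPM of each region (vertical axis) against its distance in kb from the nearest annotated start of its gene, in gene direction, for Col1a2, Col3a1 and 4 type VI genes, with 1 point per library and no error bar. At Col1a2 the region 48.6 kb before the start stands at 37.3, 12.9 and 1.64 CPM, and at Col6a2 the region 25284 bp before the start stands at 29.7, 22.1 and 3.45 CPM, against 16.2, 7.66 and 4.73 CPM at the start.

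The basement membrane genes differed among themselves. Their 115 regions summed to 1030, 995 and 763 CPM. Col4a1 and Col4a2, whose products make the common type IV network, are transcribed in opposite directions from starts 21 bp apart on chromosome 8 (11312826 and 11312805). A single region, from 11311771 to 11314029, covers both starts, and by its midpoint its counts went to Col4a2. It held 171, 40 and 115 counts (37.9, 10.9 and 20.9 CPM), with a log2 ratio of -1.75 (-2.33 to -1.29) for Fat1 cKO Epcam+ over control Epcam+ and of 0.91 (0.40 to 1.49) for Fat1 cKO Epcam- over Fat1 cKO Epcam+. Over all regions Col4a2 had 1300, 455 and 654 counts (288, 124 and 119 CPM), and Col4a1 754, 525 and 509 (167, 144 and 92.6 CPM). Col4a2 was thus 2.31-fold lower and Col4a1 1.16-fold lower in the first of these pairs.

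Within Col4a1 the regions ran in opposite directions. A region inside the gene 39080 bp past the start, chromosome 8 from 11273384 to 11274108, held 123, 7 and 9 counts, a log2 ratio of -3.56 (-5.18 to -2.75) for Fat1 cKO Epcam+ over control Epcam+, the lowest of any collagen region in that pair. Beyond the far end of the gene, 3 regions held 89, 144 and 71, 38, 92 and 17, and 44, 101 and 28 counts, highest in the library labelled Fat1 cKO Epcam+. These 3 were chosen with their values known.

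The other type IV genes also lie in head-to-head pairs. Col4a3 and Col4a4, chains of the kidney and lung network, lie so close that 1 region on chromosome 1 (82586672 to 82587249) covers the Col4a4 start and the near end of Col4a3. It held 10, 15 and 19 counts. Over the gene, Col4a3 held 59, 114 and 173 counts and was 2.34-fold higher for Fat1 cKO Epcam+ over control Epcam+ (1.22, 0.79 to 1.73), while Col4a4 held 42, 38 and 48. Of the 173 counts of Col4a3, 82 lay in 1 region near the end away from Col4a4, from 82714921 to 82716203, which had 11 and 2 counts in the libraries labelled control Epcam+ and Fat1 cKO Epcam+. Col4a5 and Col4a6 lie on the X chromosome with starts 1343 bp apart. Their gene sums differed little between the libraries, at 64, 50 and 94 counts and at 234, 211 and 267 counts. All counting intervals of their gene ratios included 0. By region, one inside Col4a6 held 2, 35 and 9 counts, and one 219 bp past its start 7, 6 and 20. The region over the Col4a5 start held 35, 25 and 51.

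Col7a1, the gene of the anchoring fibrils and a keratinocyte product, lies on chromosome 9 from 108953586 to 108984875 and held 326, 319 and 183 counts over 4 regions (72.3, 87.2 and 33.3 CPM). It was 2.60-fold lower for Fat1 cKO Epcam- over Fat1 cKO Epcam+ (-1.38, -1.66 to -1.12). The start region, with 112, 119 and 132 counts, had a log2 ratio of -0.43 (-0.81 to -0.07) in that pair, and the regions 24683 and 29141 bp past the start held 116, 136 and 29 and 95, 62 and 12 counts. Col15a1 and Col18a1, the multiplexins of basement membrane zones (Col18a1 is the source of endostatin), stood at 136, 206 and 119 CPM and at 277, 321 and 294 CPM. Col15a1 was highest in the library labelled Fat1 cKO Epcam+, at a log2 ratio of 0.60 (0.44 to 0.75) over control Epcam+, and the Col18a1 ratios lay between -0.13 and 0.21.

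**Figure D4:**
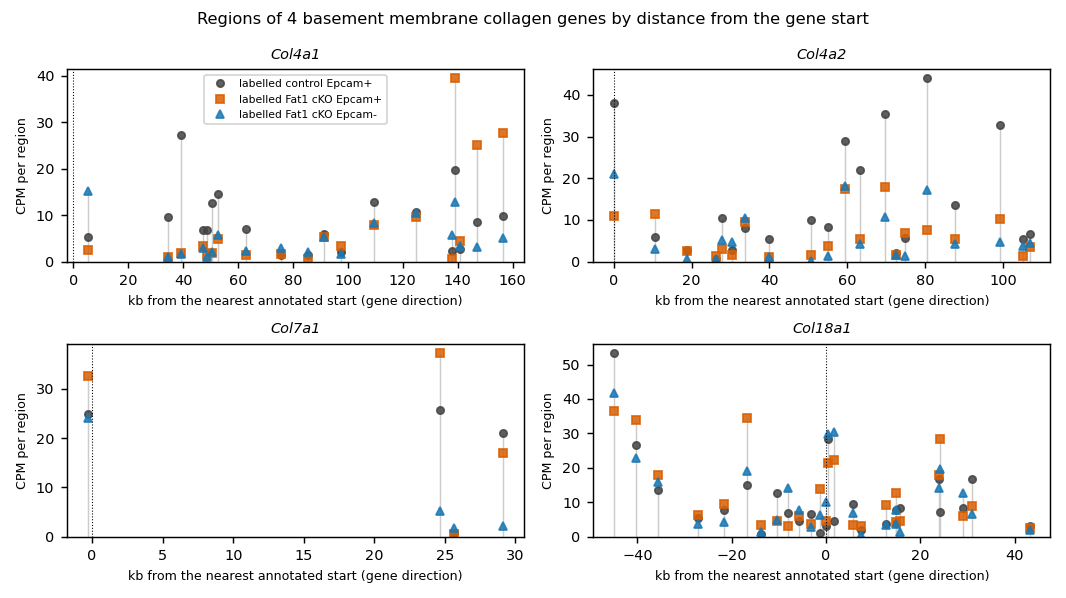
CPM of each region (vertical axis) against its distance in kb from the nearest annotated start of its gene, in gene direction, for Col4a1, Col4a2, Col7a1 and Col18a1, with 1 point per library and no error bar. The start region of Col7a1 is at a like height in the 3 libraries, whereas its inner regions at 24683 and 29141 bp are low under the label Fat1 cKO Epcam-; the start region of Col4a1 is drawn with Col4a2.

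Among the remaining genes, the fibril-associated type IX genes stood apart. Col9a1, Col9a2 and Col9a3, chains of a cartilage collagen that coats fibrils, held 14, 70 and 39, 52, 78 and 97, and 28, 113 and 76 counts. In CPM they were 3.11, 19.1 and 7.09, 11.5, 21.3 and 17.6, and 6.21, 30.9 and 13.8, each highest under the label Fat1 cKO Epcam+ and lowest in that labelled control Epcam+. Col9a1 was 5.52-fold (2.47, 1.78 to 3.57) and Col9a3 4.71-fold higher (2.24, 1.71 to 2.97) for Fat1 cKO Epcam+ over control Epcam+. They rest on 3 regions each, and 78 of the 113 counts of Col9a3 lay in 1 region inside the gene, chromosome 2 from 180604413 to 180605308, which had 7 and 25 counts in the libraries labelled control Epcam+ and Fat1 cKO Epcam-.

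Fibril-associated genes of skin and tendon differed less. Col12a1 and Col14a1, which sit on type I fibrils, stood at 70.3, 69.2 and 79.5 CPM and at 46.8, 61.2 and 31.8 CPM. Col16a1 was at 118, 115 and 83.8 CPM and Col22a1, of tissue junctions, at 25.5, 42.1 and 26.9 CPM. The short-chain genes Col8a1 and Col8a2, of endothelial and corneal membranes, were at 107, 111 and 68.4 CPM and at 57.9, 54.1 and 42.9 CPM. None of these 6 was 2-fold apart between any 2 of the libraries. Within Col8a1, though, single regions were: 47, 67 and 6 counts in one and 27, 57 and 5 in another, against 4, 2 and 40 in the region 2872 bp before its start.

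The transmembrane collagens, which stay anchored in the cell surface, were highest in the library labelled Fat1 cKO Epcam-. Col23a1 had 421, 288 and 872 counts over 18 regions (93.4, 78.7 and 159 CPM), Col13a1 47, 51 and 121 (10.4, 13.9 and 22.002 CPM) and Col25a1 48, 32 and 124 (10.6, 8.75 and 22.5 CPM). At Col23a1 12 of the 18 regions were highest in that library, with no minimum count set. For Fat1 cKO Epcam- over control Epcam+, 14 of the 18 had 20 counts. Of these 14, 8 were at least 2-fold higher and 1 lower, against 28.4% and 19.3% of 65821 nuclear regions. The most extreme lay 133072 bp past the start, with 8, 16 and 103 counts. Col28a1 held 94, 240 and 297 counts and was 3.10-fold higher for Fat1 cKO Epcam+ over control Epcam+ (1.63, 1.304 to 2.01). Col26a1 held 44, 41 and 40 counts, and Col20a1 8, 7 and 18.

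Col19a1 has the most counts of the list, 10212, 8999 and 15003, because of 1 region. That region, chromosome 1 from 24612688 to 24613184, lies 25014 bp outside the gene and holds 10192, 8987 and 14946 of those counts. It is among the 2 regions with the most counts of all nuclear regions in each library. Its counts equal 0.366%, 0.317% and 0.391% of those in the 2 mitochondrial regions, and a nuclear copy of mitochondrial DNA is known on this part of mouse chromosome 1. The share of mitochondrial reads in it was not tested. The other 4 regions of Col19a1 summed to 20, 12 and 57 counts.

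The first comparison, Fat1 cKO Epcam+ over control Epcam+, is by label between Epcam+ cells of Fat1-deleted and of control tumours. With 1 library each, genotype and differences between tumours cannot be told apart. Of 43 collagen genes 40 had 20 counts in 1 of the 2 libraries. At least 2-fold higher were 4 of the 40, or 10.0%, against 7.2% of all 15240 protein-coding genes measured, and at least 2-fold lower were 6, or 15.0%, against 4.27%. The median log2 ratio was -0.01 for the list and 0.05 for all genes. The lower genes were Col1a2, Col3a1, Col5a2 and Col27a1 among the fibrillar (4 of 10, median -0.44), Col4a2, and Col6a4 among the type VI genes (1 of 6, median -0.67). All 6 type VI ratios were below 0. The higher genes were Col4a3, Col9a1, Col9a3 and Col28a1.

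Over single regions the same pair leaned further. Of 212 collagen regions with 20 counts, 66 (31.1%) were at least 2-fold lower, against 16.3% of 53678 nuclear regions, and 29 (13.7%) were higher, against 18.8%. Fibrillar regions had 30 of 56 lower and 2 higher, and type VI regions 13 of 30 lower and 0 higher. Basement membrane regions had 21 of 75 lower (28.0%) and 12 higher (16.0%), and the remaining class 2 of 51 lower and 15 higher. Col3a1, Col27a1, Col9a1 and Col9a3 kept their side of 2-fold under each alternative that gave a value. Col1a2 came to -0.78 over regions within 1 kb of a gene end, and as the median of their regions Col5a2 came to -0.34, Col6a4 to -0.89, Col4a2 to -0.9995, Col4a3 to 0.75 and Col28a1 to 0.96. Col5a2 came to -0.97 with chromosome medians set to 0, and Col6a4 to 0.07 over regions called as peaks. The other regions at the extremes of this pair lay in Col6a4 (54, 3 and 9 counts), Col4a6 (2, 35 and 9) and beside Col18a1, 1298 bp before its start (5, 51 and 34). With the names of the columns control Epcam+ and Fat1 cKO Epcam- swapped, these ratios would read as Epcam+ over Epcam- cells of Fat1-deleted tumours.

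**Figure D5:**
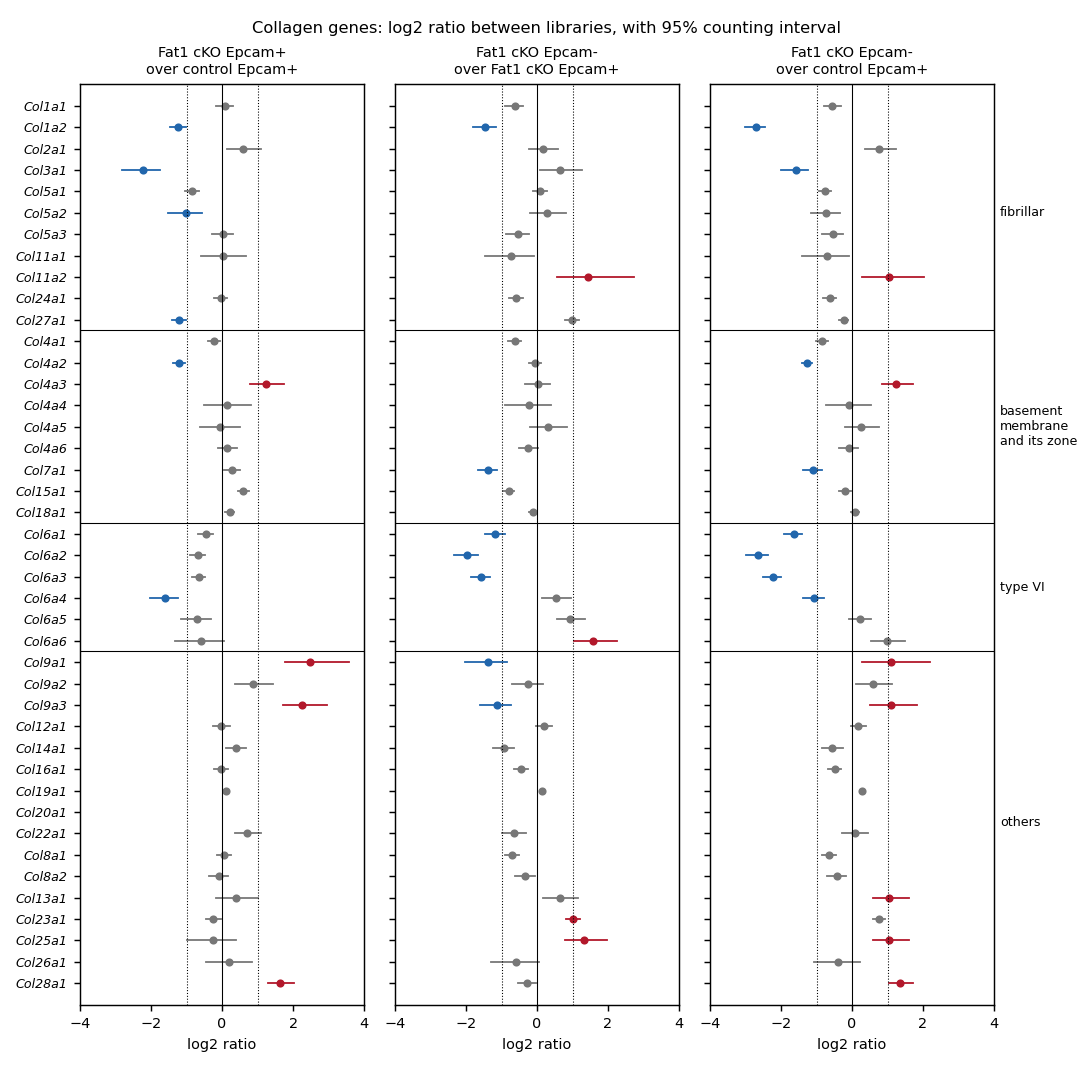
Log2 ratio of each collagen gene between the libraries named above each panel, with 95% counting intervals as lines; dotted lines mark 2-fold, blue is at least 2-fold lower, red at least 2-fold higher, and genes under 20 counts in both libraries are left blank. Col1a2, Col6a1, Col6a2 and Col6a3 lie below 0 in all 3 panels, and Col9a1 and Col9a3 change side between the first and the second.

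The second comparison, Fat1 cKO Epcam- over Fat1 cKO Epcam+, is by label between the Epcam- and the Epcam+ cells of Fat1-deleted tumours. The 2 libraries also differed on chromosome Y, which holds 33 regions and no collagen gene. Its median log2 ratio was 3.53 in this pair, -0.19 for Fat1 cKO Epcam+ over control Epcam+ and 3.34 for Fat1 cKO Epcam- over control Epcam+. Sex and label cannot be told apart in the ratios with the library labelled Fat1 cKO Epcam-. By count column, control Epcam+ and Fat1 cKO Epcam+ were the 2 alike on chromosome Y, while the titles of the 2 Fat1 cKO libraries share a code. Whether column names are exchanged was not tested. Of 41 measured collagen genes 4 (9.76%) were at least 2-fold higher, against 9.49% of 15677 genes, and 7 (17.1%) lower, against 6.28%. The share higher was near that of all genes. The median was -0.27 for the list and 0.00 for all genes. Lower were Col1a2, Col6a1, Col6a2, Col6a3, Col7a1, Col9a1 and Col9a3, and higher Col6a6, Col11a2, Col23a1 and Col25a1. Col11a2 rests on 10 against 45 counts, with an interval of 0.57 to 2.74. By region, 48 of 203 were at least 2-fold higher (23.6%, against 25.0% of 62308) and 48 lower (23.6%, against 17.5%).

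In this pair the side of 2-fold held under each alternative that gave a value for Col1a2, Col9a1, Col11a2 and Col25a1. Over regions within 1 kb of a gene end, Col6a1 (-0.72), Col6a2 (-0.76), Col7a1 (-0.43), Col23a1 (0.46) and Col9a3 (0.49) were within 2-fold. As the median of their regions, so were Col6a1 (-0.63), Col6a3 (-0.95), Col6a6 (0.55), Col9a3 (-0.96) and Col23a1 (0.93). Over regions within 10 kb, Col6a1 came to -0.98 and Col6a2 to -0.76, and inside the gene body Col6a2 came to -0.82. Col23a1 came to 0.99 with DESeq2 size factors and to 0.45 over regions called as peaks. Among the regions, the extremes were those named for Col8a1 and Col4a3, one 10660 bp before Col6a2 (91, 95 and 11 counts) and one outside Col6a5 (19, 4 and 59). Swapped column names would turn it into control Epcam+ over Fat1 cKO Epcam+.

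The third comparison set Fat1 cKO Epcam- over control Epcam+, which differ in both genotype and sort, so the effects of these cannot be told apart. Of 41 collagen genes 7 (17.1%) were at least 2-fold higher, against 12.4% of 15758 genes, and 8 (19.5%) lower, against 6.11%. The medians were -0.24 and 0.07. Lower were Col1a2, Col3a1, Col4a2, Col7a1, Col6a1, Col6a2, Col6a3 and Col6a4, and higher Col4a3, Col9a1, Col9a3, Col11a2, Col13a1, Col25a1 and Col28a1. Type VI had the lowest class median, -1.36 over 6 genes, against -0.62 for fibrillar, -0.10 for basement membrane and 0.27 for the remaining genes. Of the 34 type VI regions with 20 counts 26 (76.5%) were at least 2-fold lower, against 19.3% of 65821 nuclear regions.

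The region 48564 bp before the start of Col1a2, chromosome 6 from 4456117 to 4457991, had the lowest ratio of all collagen regions in this pair. It held 168, 47 and 9 counts, a log2 ratio of -4.18 (-5.66 to -3.55), and the authors called it in both Fat1 cKO libraries and not in that labelled control Epcam+. At the other end, a region inside Col27a1, chromosome 4 from 63329346 to 63330261, held 7, 18 and 100 counts (3.22, 2.45 to 4.90) and was called only in the library labelled control Epcam+. Call and count column again disagree at both. The next lowest lay in Col4a2 (45, 6 and 1 counts) and beyond Col6a3 (59, 4 and 3), and the next highest in Col23a1 and in Col19a1 (1, 5 and 25). Col1a2, Col3a1, Col28a1 and Col6a1 to Col6a4 kept their side of 2-fold under each alternative that gave a value, whereas Col7a1 came to -0.05 and Col4a2 to -0.85 over regions within 1 kb of a gene end. Of the 7 higher genes Col28a1 alone held throughout. With chromosome medians set to 0, Col11a2 came to 0.84, Col13a1 to 0.80, Col25a1 to 0.78, Col9a1 to 0.86 and Col9a3 to 0.65, and Col4a3 came to 0.55 as the median of its regions. Col11a2 also missed 2-fold with total counts or DESeq2 size factors as the scaling, and Col13a1 with total counts. With swapped names the ratios of the pair would only change sign.

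Start regions and the rest of a gene did not always run together. The promoter table of RefSeq (GRCm38.p6) matched 34 of the 43 genes, and 22 of them had a region of their own over an annotated start, 23 regions in all; a start inside a region that went to a neighbouring gene, as at Col4a1 and Col4a4, is not among them. For Fat1 cKO Epcam- over control Epcam+, 4 of 19 measured start regions were at least 2-fold lower (21.1%, median -0.05), beside 19.3% of all nuclear regions, and 73 of 147 regions away from the starts of the same genes (49.7%, median -0.98). In the first pair 4 of 17 start regions (23.5%, median -0.41) and 52 of 124 others (41.9%, median -0.70) were lower, beside 16.3% of all. In the second pair 1 of 17 start regions was lower (5.88%) and 4 higher (23.5%, median 0.23). Of 111 others 26 were lower (23.4%) and 31 higher (27.9%, median 0.01). Beside these stand 17.5% lower and 25.0% higher of all 62308 nuclear regions, so both shares higher were near that of all. The difference between start regions and others was not tested.

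The regions with the most counts of their class held 188, 114 and 187 counts at the Col5a1 start, 240, 134 and 229 in one 44936 bp before a Col18a1 start, and 131, 104 and 49 in one 4361 bp before Col6a1. In the remaining class, apart from the outlying Col19a1 region, it was one inside Col8a2, with 184, 127 and 109.

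The 250 bases before the start are shown for 4 genes, those with the most start-region counts among members that were 2-fold apart in a pair. At Col1a2 and Col27a1 the start region had the direction of the gene, and at Col7a1 and Col23a1 it differed by less than 2-fold where inner regions differed by more. Each is read 5′ to 3′ in gene direction, on the plus strand, with capitals at matches to the 6 motifs searched on both strands.
Col1a2, chr6:4505368-4505617: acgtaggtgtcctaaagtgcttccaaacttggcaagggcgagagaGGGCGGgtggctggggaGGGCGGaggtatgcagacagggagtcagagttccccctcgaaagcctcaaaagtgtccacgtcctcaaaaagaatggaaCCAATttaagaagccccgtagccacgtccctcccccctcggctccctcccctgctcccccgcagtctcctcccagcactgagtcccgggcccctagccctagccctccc
Col27a1, chr4:63215162-63215411: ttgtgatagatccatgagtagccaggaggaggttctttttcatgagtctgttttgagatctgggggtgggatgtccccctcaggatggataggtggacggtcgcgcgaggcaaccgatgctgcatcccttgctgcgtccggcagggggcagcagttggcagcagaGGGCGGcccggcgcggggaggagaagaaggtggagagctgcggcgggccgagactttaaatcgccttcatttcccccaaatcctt
Col7a1, chr9:108953336-108953585: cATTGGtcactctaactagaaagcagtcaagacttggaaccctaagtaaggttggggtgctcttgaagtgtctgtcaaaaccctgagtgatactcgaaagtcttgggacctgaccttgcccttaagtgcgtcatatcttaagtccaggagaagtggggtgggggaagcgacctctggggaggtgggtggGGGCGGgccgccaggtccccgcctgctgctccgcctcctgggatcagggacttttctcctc
Col23a1, chr11:51289670-51289919: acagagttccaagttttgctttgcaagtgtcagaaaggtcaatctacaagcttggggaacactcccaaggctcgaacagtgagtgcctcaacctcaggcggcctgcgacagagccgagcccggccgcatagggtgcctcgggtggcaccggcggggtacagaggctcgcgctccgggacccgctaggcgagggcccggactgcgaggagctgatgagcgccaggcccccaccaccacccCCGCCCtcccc
The start region over the Col1a2 sequence held 218, 102 and 57 counts and the Col27a1 start region 193, 38 and 157. At Col7a1 the counts were 112, 119 and 132, and at Col23a1 126, 86 and 179, with log2 ratios of -0.43 (-0.81 to -0.07) and 0.46 (0.09 to 0.86) for Fat1 cKO Epcam- over Fat1 cKO Epcam+. For Fat1 cKO Epcam- over control Epcam+ their intervals ran from -0.42 to 0.33 and from -0.12 to 0.56.

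The motifs were GGGCGG (the GC box bound by Sp1), CCAAT (bound by NF-Y), TATAAA (the TATA box), TGANTCA (bound by AP-1), CACCTG (an E-box bound by Snail and Zeb factors) and GGAATG (bound by TEAD), and no matches overlapped in the 4 sequences. GGGCGG occurred in all 4 of them, at 2 places in Col1a2, in 59.5% of the 37 collagen promoters and in 32.7% of all 32851 promoters of the table. CCAAT occurred in Col1a2 and Col7a1, and in 32.4% and 33.8%. TATAAA was in 10.8% and 12.4%, TGANTCA in 2.70% (Col6a1) and 6.75%, CACCTG in 10.8% and 17.2%, and GGAATG in 10.8% and 12.6%. The median GC content of these sequences was 59.2% for collagen genes and 52.4% for all. A match only describes the letters.

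Of 36 genes that process or bind collagen, 35 were measured in each pair. In the first pair 0 were at least 2-fold higher (7.2% of all genes) and 1 lower (4.27%), Ddr2, a receptor kinase for fibrillar collagen, at 166, 52.5 and 71.1 CPM (-1.65). In the second pair 1 was higher (9.49% of all genes) and 6 lower (6.28%). The glycosyltransferase gene Colgalt2 was higher, at 3.55 against 15.1 CPM (1.96). The crosslinking oxidase gene Loxl3 was lowest, at 10.9 against 3.09 CPM (-1.69, -2.73 to -0.97). Next was Pcolce, an enhancer of propeptide cleavage, at 9.84 against 2.91 CPM (-1.62, -2.71 to -0.87). Colgalt2, Loxl3 and Pcolce rest on 1 region each, with 13 against 83, 40 against 17 and 36 against 16 counts. In the last pair 3 were higher (12.4% of all genes), led by the prolyl hydroxylase gene P3h2 (98.7 against 234 CPM, 1.24) and Colgalt2 (1.09), and 9 lower (6.11%), led by Loxl3 (-1.91) and the propeptidase gene Adamts14 (89.6 against 25.3 CPM, -1.81). The medians of the list were -0.21, -0.05 and -0.22, and Fkbp10 had no region.

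The median log2 ratio of regions with 20 counts on the chromosomes that hold collagen genes ranged from -0.19 to 0.28 in the first pair, from -0.32 to 0.55 in the second and from -0.27 to 0.52 in the third. Chromosome 6, with Col1a2, stood at 0.02, -0.32 and -0.27, and chromosome 10, with Col6a1 and Col6a2, at -0.12, 0.32 and 0.25. With these medians set to 0, Col1a2 stayed below -1 in all 3 pairs, and Col6a1 and Col6a2 in the second and the third.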

How the data were processed

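ATAC-seq counts of 3 libraries, 1 per group, were used. Raw counts over 95842 merged regions, as deposited, came with other values, a yes or no peak call per library. Per the submitters' processing notes the tools were MACS2 2.1.0.20151222, Picard, SAMtools and Bowtie2 2.2.6, with GRCm38 (mm10) as the build. The counting tool, filters, Tn5 shift, peak threshold and whether starts count from 0 are stated by no source used here, so coordinates are as deposited.

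Columns were matched to samples by title. The 2 mitochondrial regions were left out. TMM sizes came from edgeR 4.0.16 (R 4.3.3) and ratios from Python 3.11.15, with a prior count of 2, all regions entering the scaling. The size rule was 2-fold with 20 counts in 1 of the 2 libraries. Each ratio has a 95% Clopper-Pearson interval; reads without molecular identifiers may make them too narrow. Only for the fold of a region with a count of 0 was that 0 read as 3 counts (0.665, 0.820 and 0.545 CPM). All log2 ratios and the size rule used the prior count there too. Genes and starts came from RefSeq tables (GRCm38.p6); 1 collagen region lay in several gene bodies and went to the gene with the nearer end. The scripts were tested on simulated data.

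Named are members with 100 counts in 1 library or past the size rule, the regions with the most counts per class and the 3 highest and lowest per pair. Type VII, XV and XVIII genes were put with the basement membrane class. The members and lists were chosen with earlier results of these data known. Of 12 alternatives, 11 were planned (scaling by total counts or DESeq2 1.42.0 size factors, count minimum, prior count, assignment, combination, peak calls, chromosome medians) and 1, without the outlying Col19a1 region, was added after seeing the data.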

Additional observations from a re-analysis of the deposited data

How the results depend on the processing

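The median log2 ratio of the collagen genes changed sign over regions within 1 kb of a gene end, from -0.27 to 0.23 for Fat1 cKO Epcam- over Fat1 cKO Epcam+ and from -0.24 to 0.011 for Fat1 cKO Epcam- over control Epcam+. For Fat1 cKO Epcam+ over control Epcam+ it lay between -0.24 and 0.12 under all 12 alternatives. Of 36 gene ratios past 2-fold, 15 stayed so under every alternative that gave a value. Over 406 combinations of such a ratio with an alternative, 363 kept their side, 41 kept the direction under 2-fold and 2 changed sign: Col6a4 for Fat1 cKO Epcam+ over control Epcam+ came to 0.066 over regions called as peaks in the pair, and Col9a3 for Fat1 cKO Epcam- over Fat1 cKO Epcam+ to 0.49 over regions within 1 kb of a gene end. For Fat1 cKO Epcam+ over control Epcam+, 4 higher genes became 0 over regions near gene ends, where none of the 4 had 20 counts, and 2 with the median of a gene's regions, which left 3 of 6 lower. For Fat1 cKO Epcam- over Fat1 cKO Epcam+, 4 higher and 7 lower became 2 and 1 near gene ends, and the lower became 4 with the median of regions and 13 over called peaks. For Fat1 cKO Epcam- over control Epcam+, 7 higher became 4 at a minimum of 100 counts (which tests fewer genes), 4 near gene ends, 4 with the median of regions and 2 with chromosome medians set to 0, and 8 lower became 4 near gene ends. Near gene ends 22, 25 and 26 genes were measured in the 3 pairs, so part of each drop there is genes without a value. The cause was not tested for the others. No paired analysis was possible because each group has 1 library. Depth limits Col20a1, Col26a1 and Col11a2 most among genes with a region, with at most 18, 44 and 45 counts in a library.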

Other observations

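For Fat1 cKO Epcam- over control Epcam+, of 66 collagen regions measured outside gene bodies, 36 (54.5%) were lower by 2-fold or more (median -1.22 on the log2 scale), and 8 (12.1%) higher. Of 178 inside, 59 (33.1%) were lower, with a median of -0.23, and 40 (22.5%) higher. Over all nuclear regions the shares were 19.3% lower and 28.4% higher. For Fat1 cKO Epcam+ over control Epcam+ the lower shares were 31.7% of 60 outside and 30.9% of 152 inside, beside 16.3% of all. No difference between outside and inside was tested.

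The library with the highest CPM differed by collagen class. Of 34 type VI regions with 20 counts in 1 library, 25 (73.5%) were highest in that labelled control Epcam+, as were 40 of 65 fibrillar regions (61.5%), 35 of 87 basement membrane regions (40.2%) and 17 of 75 remaining regions (22.7%), against 28.8% of 69022 nuclear regions. In the remaining class 34 (45.3%) had their highest CPM under the label Fat1 cKO Epcam-, against 41.7% of all.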
